A study of Mus musculus with 16 samples.

Results

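The genes described here are the 8 sarcomeric myosin heavy chain genes Myh1, Myh2, Myh3, Myh4, Myh6, Myh7, Myh7b and Myh8, read out by RNA sequencing of mouse gastrocnemius muscle. They were chosen by name, as the rows of the deposited count table whose Entrez identifier belongs to one of these symbols. They make up 8 of 24454 genes in the table, and all 8 passed the filter on low counts that left 15487 genes for testing. HSALR mice, a model of myotonic dystrophy type 1, carry a human skeletal actin transgene with long CTG repeats that is expressed in skeletal muscle only, and per the study's methods they are homozygous animals of 1 transgenic line. Control mice were of the FVB/N strain. Both genotypes were 3 months old and received either vehicle, labelled CTRL, or AICAR, an activator of the energy sensor AMPK, at 500 mg/kg for 7 days. The 4 groups were control mice on vehicle (n = 3), control mice on AICAR (n = 3), HSALR mice on vehicle (n = 5) and HSALR mice on AICAR (n = 5), with 1 library per mouse.

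Myosin heavy chain is the motor protein of the thick filament, and the isoform that a muscle fibre makes sets much of its speed of contraction. Adult limb fibres are classed by it: Myh7 encodes the slow type I chain, Myh2 the fast IIa chain, Myh1 the fast IIx chain and Myh4 the fast IIb chain, which prevails in the mouse gastrocnemius. Myh3 and Myh8 encode the embryonic and perinatal chains of developing and regenerating muscle, Myh6 the alpha chain of cardiac muscle, and Myh7b a chain found at low levels in slow fibres.

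In HSALR mice on vehicle, Myh1 was 2.87-fold higher than in control mice on vehicle, and its share of all counts of the 8 genes was 24.0% against 7.64%. The share of Myh4 was 67.0% against 78.9%, a difference that did not pass its test (exact permutation p = 0.054), and its level was not called (adjusted p = 0.19, edgeR). Against AICAR-treated control mice, AICAR-treated HSALR mice had Myh1 2.83-fold higher and Myh4 1.59-fold lower, the latter past the test only while control mouse S449 was included. The slow chain Myh7 and the minor chains Myh6 and Myh7b were lower in HSALR mice on vehicle, but those calls were lost when 1 control mouse, S450, was left out. Because of sequence shared with Myh7, the counts of Myh6 are uncertain as a measure of that gene. Within HSALR mice, none of the 8 levels passed the edgeR test for AICAR over all mice. The small share of Myh3 was lower on AICAR without overlap (exact permutation p = 0.0079, 1 of 40 share tests without adjustment). Markers of epidermis also differed between those 2 groups, and their part in this result was not tested beyond a covariate fit of the level, given below.

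Libraries held 64890014 to 81987726 counts in total, and the 8 genes took 5.07% to 7.92% of them, so that Myh4 alone had 1789781 to 5401097 counts per mouse. The skeletal muscle markers Acta1, Ckm, Ttn, Des and Myf6 summed to 55310 to 73540 normalized CPM (counts relative to library size, with edgeR's TMM scaling) in all 16 libraries. Cardiac markers (Nppa, Myl7, Tnni3, Ryr2 and Nkx2-5) summed to 0.260 to 1.02 normalized CPM, with Nppa at 0 in all 6 control mice and at 1 to 4 counts in HSALR mice. Markers of epidermis (8 keratinocyte genes) stood apart in 6 libraries, at 28.5 to 287.3 normalized CPM, against 2.26 to 3.72 in the other 10. Those 6 libraries were control mice S450 (vehicle) and S448 (AICAR) and HSALR vehicle mice S452, S453, S458 and S459. Their part in the results was not tested directly, and fits with the summed epidermal level as a covariate are given where they change a call. The human transgene was not measured in the table of mouse genes, so that the genotype labels were not checked against it. These are bulk samples, in which fewer fibres of a type and less RNA per fibre cannot be told apart.

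On chromosome 11, 5 of the members lie side by side with Myh13, which encodes the chain of extraocular muscle, in a cluster of 293 kb (GRCm38.p6, chr11:67078273-67371587) whose 6 protein-coding genes are all myosin heavy chains. Their order is Myh3 (chr11:67078273-67102291), Myh2 (chr11:67171027-67197517), Myh1 (chr11:67200102-67224577), Myh4 (chr11:67237812-67260447), Myh8 (chr11:67277124-67308634) and Myh13 (chr11:67327103-67371587), and the 5 members lie on the plus strand. Myh6 (chr14:54941921-54968017) and Myh7 (chr14:54970684-54994626) form a pair on the minus strand of chromosome 14, and Myh7b lies alone on chromosome 2 (chr2:155611243-155634307). Lengths in the table ran from 5992 bases for Myh3 to 6148 bases for Myh8, so that levels per length and levels per gene rank the members alike.

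The 3 adult fast genes of the cluster, 2 of which had shares that differed between the genotypes after AICAR, share letters just upstream of their start sites. The 180 bases before the RefSeq start of each are shown to let them be compared, with 2 features in capitals: the longest run common to all 3 (20 bases) and, where it falls within these bases, the TATA motif TATAAA.
Myh1 (chr11:67199922-67200101, plus strand): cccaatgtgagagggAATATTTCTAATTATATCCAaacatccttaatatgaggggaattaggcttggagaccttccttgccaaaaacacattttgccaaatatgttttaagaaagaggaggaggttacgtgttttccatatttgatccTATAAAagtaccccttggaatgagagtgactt
Myh2 (chr11:67170847-67171026, plus strand): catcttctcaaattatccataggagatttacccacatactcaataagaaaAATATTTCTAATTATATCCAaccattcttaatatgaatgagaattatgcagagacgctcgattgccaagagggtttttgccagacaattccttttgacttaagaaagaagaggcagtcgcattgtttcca
Myh4 (chr11:67237632-67237811, plus strand): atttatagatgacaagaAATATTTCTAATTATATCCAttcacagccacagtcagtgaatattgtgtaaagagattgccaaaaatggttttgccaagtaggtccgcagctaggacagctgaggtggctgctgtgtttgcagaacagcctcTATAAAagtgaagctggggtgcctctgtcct
The common run AATATTTCTAATTATATCCA begins 165 bases before the start of Myh1, 130 bases before that of Myh2 and 163 bases before that of Myh4. On either strand, 3 of 32851 RefSeq promoters of 300 bases hold it (0.00913%), namely these 3, from which the run was taken. The longest run that these 3 have in common with Myh8 is a shorter stretch of it, TTCTAATTATATCC (14 bases). It is found in 4 promoters in all (0.0122%), namely those of the 4 genes from which it was taken. TATAAA begins 32 bases before the start of Myh1 and 31 bases before that of Myh4, and 11 bases after the RefSeq start of Myh2. It is found on either strand in 13.6% of all promoters. The E-box CANNTG, the motif bound by MyoD and myogenin, had 3 matches in the 300 bases of Myh4, 2 in those of Myh8 and 0 in those of Myh1 and Myh2, where 72.3% of all promoters hold at least 1. A match or its absence is a property of these letters and says nothing of binding.

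Adult fast chains made up most of the readout. Per kilobase of gene length, Myh4 ranked first in all 4 groups, with 7506 ± 1268 normalized CPM per kb in control mice on vehicle (SD, n = 3) and 5915 ± 1147 in HSALR mice on vehicle (SD, n = 5). It was followed by Myh1 at 728 ± 159 and 2087 ± 539, Myh2 at 629 ± 186 and 517 ± 85.3, and Myh7 at 439 ± 309 and 169 ± 24.7. In control mice on vehicle the ranges of Myh1 and Myh2 overlapped, as did those of Myh2 and Myh7. Myh4 stood clear of Myh1 in that group, Myh7 of Myh6 (4.09-fold) and Myh8 of Myh7b (15.1-fold). In HSALR mice on vehicle the 4 leading genes had ranges that did not overlap. The gap between Myh4 and Myh1 was 10.3-fold in control mice, on vehicle and on AICAR alike, against 2.83-fold in HSALR mice on vehicle and 2.30-fold in HSALR mice on AICAR. Below them, Myh6 and Myh8 overlapped in every group at 38.2 to 107 normalized CPM per kb, and Myh7b and Myh3 closed the order at 0.644 to 3.54.

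**Figure D1:**
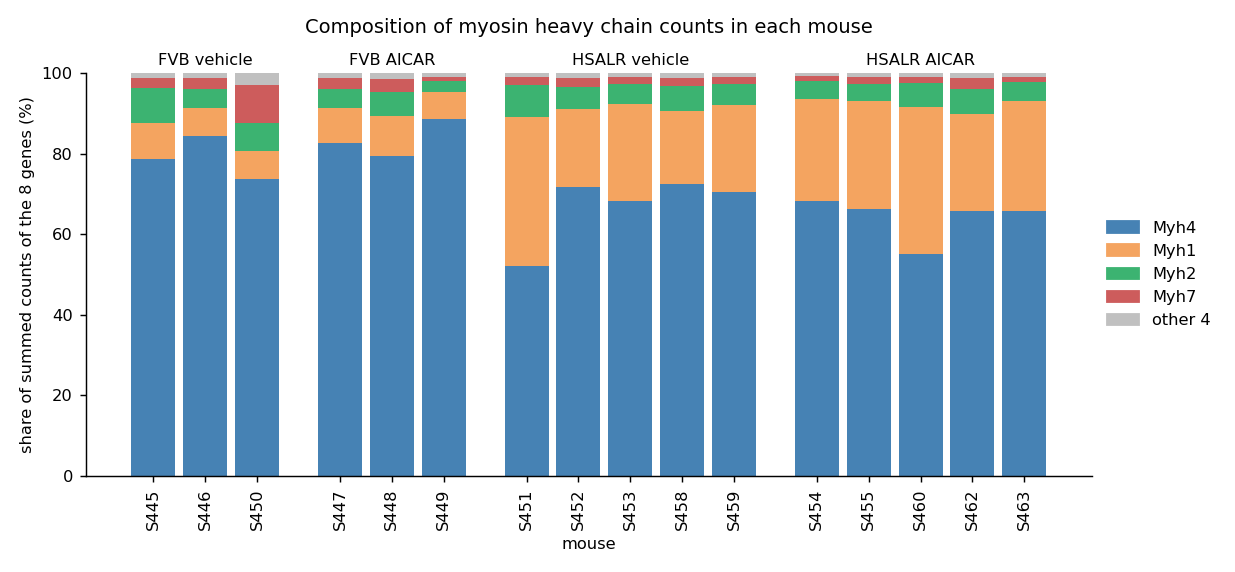
Share of each gene in the summed counts of the 8 myosin heavy chain genes (y axis, percent) in each of the 16 mice (x axis, grouped by genotype and treatment), with Myh3, Myh6, Myh7b and Myh8 drawn together in grey. Myh1 takes 18.1% to 36.9% in HSALR mice and 6.72% to 9.88% in control mice, and mouse S450 carries 9.57% of Myh7.

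Myh1, the fast IIx chain, was measured at 5408, 4230 and 3513 normalized CPM in the 3 control mice on vehicle. The 5 HSALR mice on vehicle had 17612, 10030, 12338, 9473 and 13369 normalized CPM. Every HSALR mouse lay above every control mouse, and mouse S451 was the highest of its group. The log2 fold change was 1.52 (SE 0.19; adjusted p = 4.1e-05, quasi-likelihood test of edgeR, adjusted by Benjamini-Hochberg over all genes tested). Leaving out any 1 of the 8 mice gave 1.36 to 1.70, and 11 other settings of the analysis gave 1.37 to 1.80, all past the threshold. As a share of the 8 genes, Myh1 rose by 16.4 percentage points, from 7.64% ± 1.26 (SD, n = 3) to 24.0% ± 7.54 (SD, n = 5; two-sided exact permutation test, p = 0.018). That p is the smallest that 5 mice against 3 can give. In all, 40 such tests of shares were run (8 genes in 5 comparisons), and their p-values are not adjusted for that number.

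Myh4, the fast IIb chain, had 46709, 52177 and 37063 normalized CPM in control mice on vehicle. HSALR mice on vehicle had 24907, 37039, 34866, 37765 and 43980. The ranges overlapped, with S451 the lowest and the control mouse S450 within the range of HSALR mice. The log2 fold change of -0.34 (SE 0.18) did not pass the test (adjusted p = 0.19, edgeR). The share of Myh4 was 78.9% ± 5.37 in control mice and 67.0% ± 8.44 in HSALR mice, and although no HSALR mouse reached the lowest control mouse, the difference of -11.9 percentage points had an exact permutation p of 0.054. Without S451 it was -8.20 percentage points (exact permutation p = 0.029), and it passed as well with counts per gene length (-12.0, exact permutation p = 0.036) and over the 4 adult genes alone (-12.6, exact permutation p = 0.036). Shares of 1 sum are not independent, so that the shares of Myh1 and Myh4 are 2 views of 1 difference. The count ratio of Myh1 to Myh4 ranged from 0.0811 to 0.116 in control mice on vehicle and from 0.251 to 0.707 in HSALR mice on vehicle.

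Myh2, the fast IIa chain, had 5105, 2958 and 3423 normalized CPM in control mice and 3835, 2764, 2512, 3269 and 3344 in HSALR mice on vehicle. Its ranges overlapped, with a log2 fold change of -0.28 (SE 0.19; adjusted p = 0.3, edgeR), which was 0.01 when scaled to Tbp. Its share was 6.73% and 5.98% (exact permutation p = 0.55). The fast chains thus differed in their calls, but the difference between their fold changes was not tested.

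Myh7, the slow chain, had 1506, 1647 and 4812 normalized CPM in control mice on vehicle. HSALR mice on vehicle had 888, 1243, 889, 1091 and 1011. All 5 HSALR mice lay below all 3 control mice, and the high control value belongs to S450. The log2 fold change was -1.37 (SE 0.36; adjusted p = 0.011, edgeR), 2.59-fold lower. Without S450 it was -0.62 (adjusted p = 0.17), so that the call and most of its size rest on that mouse, while the ranges still did not overlap. The share of Myh7 was 4.92% (2.53% to 9.57%) in control mice and 1.94% (1.62% to 2.41%) in HSALR mice, a difference of -2.98 percentage points (exact permutation p = 0.018). Without S450 that difference was -0.656 percentage points (exact permutation p = 0.048, the smallest that 5 against 2 can give).

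Myh6 and Myh7b followed Myh7. Myh6, the alpha-cardiac chain, had 373, 411 and 1173 normalized CPM in control mice and 218 to 306 in HSALR mice on vehicle, with a log2 fold change of -1.35 (SE 0.36; adjusted p = 0.012, edgeR). Without S450 it was -0.62 (adjusted p = 0.18). Myh7b had 18, 15.3 and 31.8 normalized CPM in control mice and 7.81 to 11.0 in HSALR mice on vehicle, with a log2 fold change of -1.19 (SE 0.31; adjusted p = 0.011, edgeR) and, without S450, of -0.80 (adjusted p = 0.096). S450 was the highest mouse of all 16 for the 3 genes.

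The chains of development did not pass the test. Myh3, the embryonic chain, had 5.32, 5.00 and 17.6 normalized CPM in control mice and 9.98, 6.52, 6.39, 9.99 and 7.34 in HSALR mice on vehicle. Only S450 exceeded the HSALR mice. Its log2 fold change was -0.21 (SE 0.34; adjusted p = 0.69, edgeR), and without S450 it turned to 0.64 (adjusted p = 0.063). Myh8, the perinatal chain, had 339, 378 and 268 normalized CPM in control mice and 284 to 363 in HSALR mice on vehicle (log2 fold change -0.07, SE 0.15; adjusted p = 0.77, edgeR); scaled to Tbp, it was 0.19.

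In HSALR against control mice on vehicle, 4 of 8 genes were called (1 higher, 3 lower), where 26.9% of all genes tested were called (15.4% higher, 11.5% lower), and without S450 the count was 1 of 8, Myh1. Of the 3 lower, Myh6 shares much sequence with Myh7, so that these 2 calls may not be separate. The median log2 fold change of the 8 genes was -0.31, against 0.01 over all genes tested. For fits without S450, here and below, the share of all genes called is not given. Without S450, all 8 epidermal markers were higher in HSALR mice at an unadjusted p under 0.05 (median log2 fold change 7.28) and 0 of 8 passed after adjustment by edgeR, so that those markers then moved with genotype, and their part in the values without S450 was not tested. Over all mice, 5912 of the 15487 genes tested had an unadjusted p under 0.05 in this comparison. Smooth muscle markers were lower in HSALR mice on vehicle in 2 of 5 (4 of 5 at an unadjusted p under 0.05, and 3 of 5 called without S450), Ryr2 of the 2 cardiac markers tested was lower, and 2 of 4 macrophage markers were higher (1 of 4 without S450). Their part in the results was not tested.

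**Figure D2:**
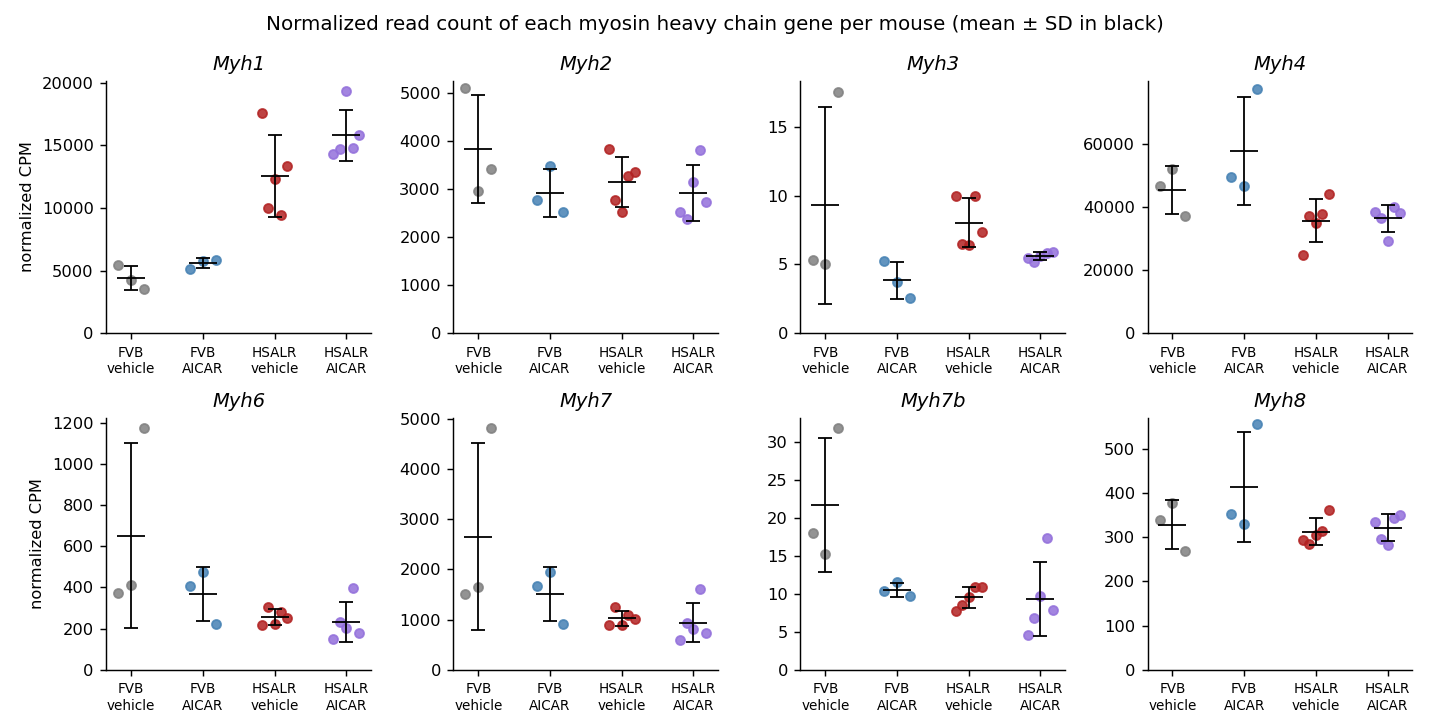
Normalized CPM (y axis, linear from 0, a separate scale for each gene) of the 8 genes in each mouse of the 4 groups (x axis), with points for mice and black marks for the mean ± SD. Myh1 is separated by genotype on either treatment, and the 1 high vehicle control point for Myh3, Myh6, Myh7 and Myh7b is mouse S450, with 4812 normalized CPM of Myh7.

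After AICAR, the genotypes were compared in other mice. Myh1 had 5116, 5793 and 5872 normalized CPM in control mice and 14295, 14698, 19358, 14820 and 15865 in HSALR mice. The groups did not overlap, and S460 was the highest. On the log2 scale the change was 1.50 (SE 0.19; adjusted p = 7.8e-05, edgeR), with 1.42 to 1.53 when any 1 mouse was left out. Its share was 28.1% ± 4.91 in HSALR mice (SD, n = 5) and 8.39% ± 1.59 in control mice (SD, n = 3), 19.7 percentage points higher (exact permutation p = 0.018).

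Myh4 had 49397, 46589 and 77356 normalized CPM in AICAR-treated control mice and 38449, 36522, 29131, 40102 and 37994 in AICAR-treated HSALR mice. No HSALR mouse reached the lowest control mouse, and S449 stood far above the other control mice. The log2 fold change was -0.67 (SE 0.18; adjusted p = 0.018, edgeR), and without S449 it was -0.40 (adjusted p = 0.13). Its share of 64.2% against 83.6% differed by -19.4 percentage points (exact permutation p = 0.018), and the difference was -21.4 to -16.9 when any 1 mouse was left out. S449 also had the lowest Myh7 level of the control mice, at 905 normalized CPM.

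The levels of the other 6 genes did not pass the test after AICAR. Myh7 had a log2 fold change of -0.68 (SE 0.37; adjusted p = 0.2, edgeR), Myh6 of -0.66 (adjusted p = 0.21, edgeR) and Myh8 of -0.36 (SE 0.15; adjusted p = 0.098, edgeR). Myh8 was called with the epidermal level as a covariate (-0.43; adjusted p = 0.045, edgeR) and without S448 (-0.50; adjusted p = 0.047, edgeR), whereas without S449 it had -0.09 (adjusted p = 0.67, edgeR). Myh2, at 2522 to 3475 normalized CPM in control mice and 2366 to 3799 in HSALR mice, had -0.0039 (adjusted p = 0.99, edgeR). Myh3, at 5.21 to 5.92 normalized CPM in HSALR mice and 5.26, 3.76 and 2.56 in control mice, had 0.54 (SE 0.35; adjusted p = 0.29, edgeR). Its share of 0.00990% against 0.00605% differed without overlap by 0.00385 percentage points (exact permutation p = 0.018), and without S449 by 0.00229 (exact permutation p = 0.048). Thus 2 of 8 genes were called by level (1 higher, 1 lower), where 21.8% of all genes tested were (12.2% higher, 9.64% lower). Of the epidermal markers 5 of 8, and of the smooth muscle markers 1 of 5, were also called lower in this comparison, and their part in the results was not tested beyond the covariate fit.

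AICAR within HSALR mice changed none of the 8 genes past the threshold by edgeR, DESeq2 or limma voom, where 26.6% of all genes tested were called by edgeR. An unadjusted p under 0.05 (edgeR) was found for 0 of 8 and for 5887 of the 15487 genes tested. Myh1 had a mean of 15810 ± 2068 normalized CPM on AICAR and 12560 ± 3246 on vehicle (SD, n = 5 each). The groups overlapped through S451, whose 17612 exceeded 4 of the 5 AICAR-treated mice. The log2 fold change was 0.33 (SE 0.16; adjusted p = 0.13, edgeR). Without S451 it was 0.48 (adjusted p = 0.02), and the share difference, 4.06 percentage points over all mice (exact permutation p = 0.36), was then 7.28 (exact permutation p = 0.016). The share of Myh4 differed by -2.80 percentage points (exact permutation p = 0.5) and, without S451, by -6.51 (exact permutation p = 0.024).

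Myh4 itself had 36440 ± 4281 and 35710 ± 6925 normalized CPM on AICAR and vehicle, a log2 fold change of 0.03 (SE 0.16; adjusted p = 0.92, edgeR). Myh3 was lower in each AICAR-treated HSALR mouse, at 5.46, 5.21, 5.61, 5.82 and 5.92 normalized CPM, than in any HSALR mouse on vehicle. Its log2 fold change of -0.52 (SE 0.29) had an adjusted p of 0.21 in edgeR over all 16 libraries and of 0.015 when only the 10 HSALR libraries entered the fit. Its share differed by -0.0055 percentage points (exact permutation p = 0.0079, the smallest that 5 against 5 can give). Epidermal markers also differed between these groups, at 2.47 to 3.11 normalized CPM in all 5 AICAR-treated mice and 28.5 to 287.3 in 4 of the 5 vehicle mice, S451 being the other. All 8 of those markers were called lower, where 13% of all genes tested were, and their part in the results was not tested beyond the covariate fit, which gave Myh1 a log2 fold change of 0.15 (adjusted p = 0.63) and Myh3 of -0.27 (adjusted p = 0.65).

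AICAR within control mice gave 1 call in 8, where 13.2% of all genes tested were called. It was Myh3, at 5.26, 3.76 and 2.56 normalized CPM after 5.32, 5.00 and 17.6 on vehicle, with a log2 fold change of -1.27 (SE 0.39; adjusted p = 0.042, edgeR). Without S450 it was -0.42 (adjusted p = 0.31), and with the epidermal level as a covariate -1.15 (adjusted p = 0.062). Myh7b, at 10.4, 11.5 and 9.75 normalized CPM, lay below all vehicle mice (log2 fold change -1.04, SE 0.36; adjusted p = 0.07 in edgeR and 0.023 in DESeq2). Myh7 had -0.82 (SE 0.42; adjusted p = 0.21, edgeR), and without S450 -0.07. Myh1 and Myh4 both had 0.35 (adjusted p = 0.27 and 0.29, edgeR). Leaving out 1 mouse gave Myh1 0.21 (without S450) to 0.53 (without S445) and Myh4 0.08 (without S449) to 0.47 (without S448). The Myh1 share was 8.39% against 7.64% (exact permutation p = 0.7, where 3 against 3 cannot go below 0.1), a difference of 0.748 percentage points that was 0.000449 without S448 and 1.58 without S449.

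The AICAR effects of the 2 genotypes were set against each other in an interaction contrast. No member was called by edgeR, DESeq2 or limma voom, where 0.691% of all genes tested were. An unadjusted p under 0.05 (edgeR) was found for 1 of 8, Myh7b, and for 2324 of the 15487 genes tested. For Myh1 the difference of the effects was -0.02 (SE 0.25; adjusted p = 0.98, edgeR), and for Myh4 -0.32 (SE 0.26; adjusted p = 0.6, edgeR), which was -0.05 without S449 (adjusted p = 0.94, edgeR).

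AICAR-treated HSALR mice were also compared with control mice on vehicle, a comparison that shares its mice with those above. In it, 4 of 8 genes were called (1 higher, 3 lower), where 37.2% of all genes tested were (20.8% higher, 16.4% lower). Here too, the calls of Myh6 and Myh7 may not be separate. Myh1 was 3.61-fold higher (log2 fold change 1.85, SE 0.19; adjusted p = 5.9e-06, edgeR). Myh7 (-1.50), Myh6 (-1.49) and Myh7b (-1.23) were lower on the log2 scale (adjusted p = 0.0048, 0.0048 and 0.0069, edgeR), and without S450 they had -0.75, -0.76 and -0.84 (adjusted p = 0.082, 0.078 and 0.064), so that 1 of 8 was then called. All 5 smooth muscle markers (log2 fold changes of -1.07 for Cnn1 to -0.45 for Smtn) and 6 of 8 epidermal markers were also called lower in this comparison. So was Ryr2 (-1.61), 1 of the 2 cardiac markers tested, while 1 of 4 macrophage markers, Cd68 (0.85), was higher. The part of these markers in the values of the members was not tested beyond the epidermal covariate. The Myh4 share was 64.2% against 78.9% (exact permutation p = 0.018).

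**Figure D3:**
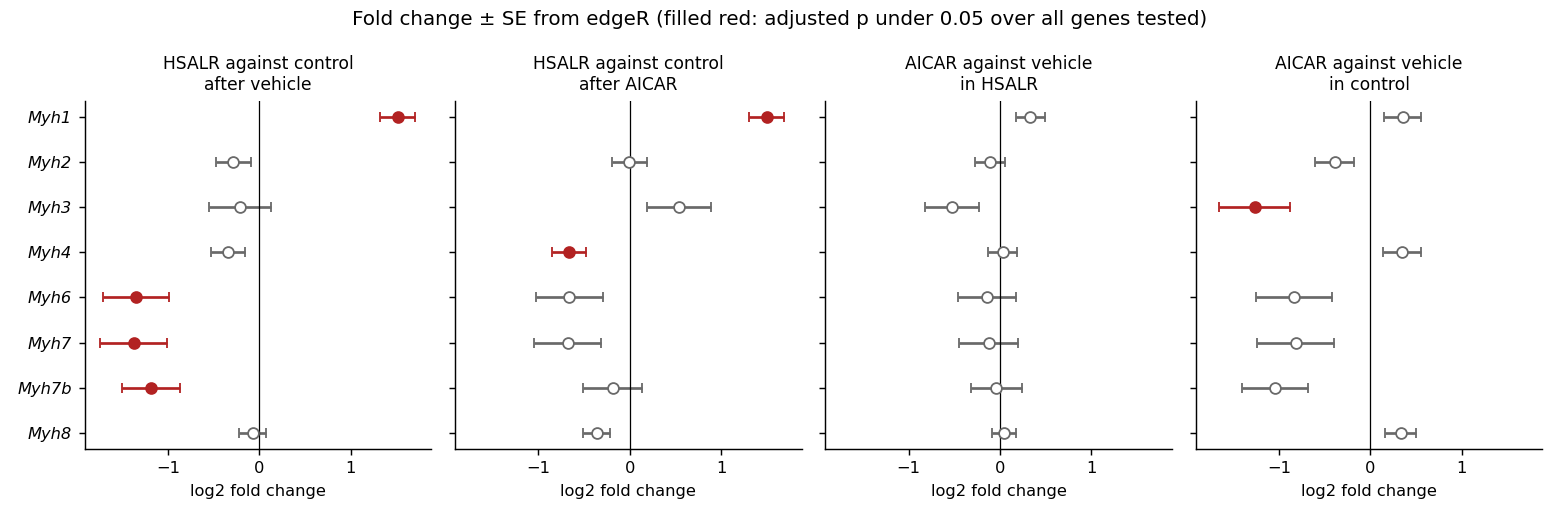
Log2 fold change ± SE (x axis) of the 8 genes (y axis) in 4 comparisons, from edgeR, with filled red points for adjusted p under 0.05. Myh1 lies at 1.52 and 1.50 in the comparisons of genotypes and at 0.33 and 0.35 in those of AICAR, which did not pass.

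Whether reads of 1 member could have been counted for another bears on several of these values. Coding sequences (GENCODE M21) of Myh6 and Myh7 were 92.4% identical, those of Myh1 and Myh2 91.2%, of Myh1 and Myh4 90.5%, and of Myh4 and Myh8 88.8%. Myh7b was at most 77.0% identical to another member. The transcript of each gene was cut into all windows of 50 bases, as a stand-in for a read whose length is not given in the sources used here. Of the windows of Myh6, 22.6% were found letter for letter in Myh7, and at 100 bases 11.4% were. Windows present in any other of the 9 genes (the members and Myh13) amounted to 27.4% for Myh1, 27.2% for Myh2, 21.4% for Myh8, 18.9% for Myh4, 4.85% for Myh3 and 0 for Myh7b. The authors' mapping reported 1 location for reads with equally good hits, so that counts from such stretches can be split between genes.

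**Figure D4:**
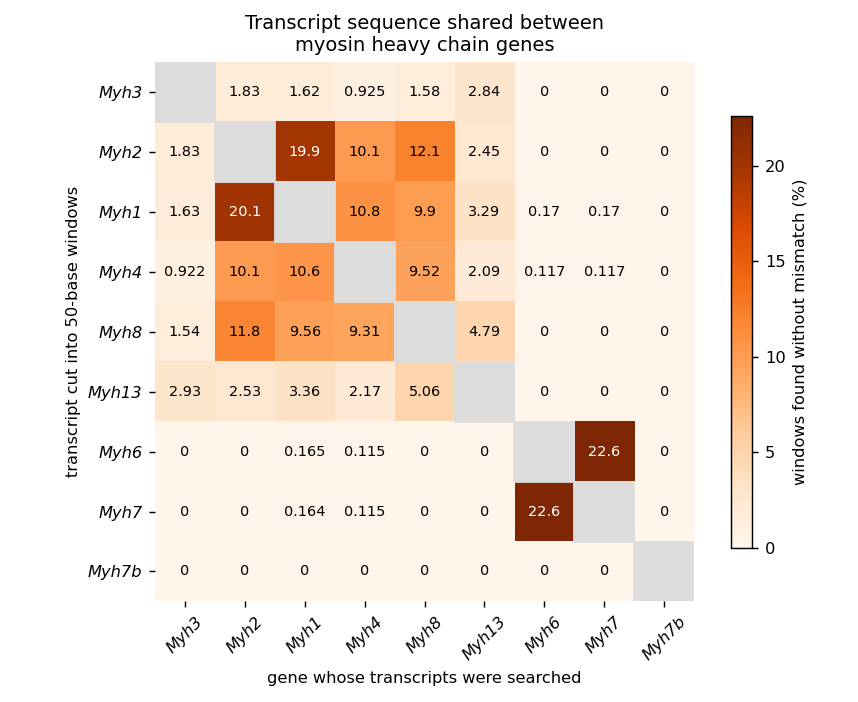
Share of 50-base windows (percent, colour and number) of the transcript in each row that occur without mismatch in transcripts of the gene in each column. Myh6 and Myh7 share 22.6%, the adult fast genes and Myh8 share 9.31% to 20.1% with each other, and Myh7b shares 0.

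The longest stretch that Myh7 and Myh6 have in common is 245 coding bases, in exons 32 to 33 of Myh7 (chr14:54974947-54975347, minus strand) and exons 30 to 31 of Myh6 (chr14:54948327-54948725, minus strand). It is shown because a read lying within it cannot be assigned to either gene by its letters.
Myh7 and Myh6: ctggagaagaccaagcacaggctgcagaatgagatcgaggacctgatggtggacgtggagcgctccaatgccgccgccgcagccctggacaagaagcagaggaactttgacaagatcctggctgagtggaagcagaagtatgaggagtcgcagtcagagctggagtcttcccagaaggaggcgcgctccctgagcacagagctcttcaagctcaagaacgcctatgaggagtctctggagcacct
The count ratio of Myh6 to Myh7 was 0.243 to 0.257 in all 16 mice, a 1.06-fold range, while Myh7 itself varied 8.00-fold between mice. Cardiac markers were near 0 in these libraries, as given above. With so much sequence in common, the counts of Myh6 are uncertain as a measure of that gene, and the share of them that comes from Myh7 transcripts was not tested. Adding the Myh6 counts to Myh7 left the Myh7 result in HSALR against control mice on vehicle at -1.37 (adjusted p = 0.011, edgeR).

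Myh8 kept a narrow ratio to Myh4 in control mice and a wider one in HSALR mice. Its ratio to Myh4 was 0.00710 to 0.00726 in the 6 control mice and 0.00768 to 0.0118 in the 10 HSALR mice, whereas its ratio to Myh1 and Myh4 together was 0.00578 to 0.00693 in all 16. Myh8 had 268 to 556 normalized CPM over the 16 mice, and how much of it comes from reads of the adult fast genes was not tested. Myh13, which shares 3.36% of its windows with Myh1, had 6.63 ± 1.14 normalized CPM in control mice and 12.8 ± 3.06 in HSALR mice on vehicle (log2 fold change 0.95, SE 0.20; adjusted p = 0.0023, edgeR). Its count ratio to Myh1 was 0.000870 to 0.00180, so that its counts were a small fraction of those of Myh1. How much of the Myh13 counts comes from reads of Myh1 was not tested.

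**Figure D5:**
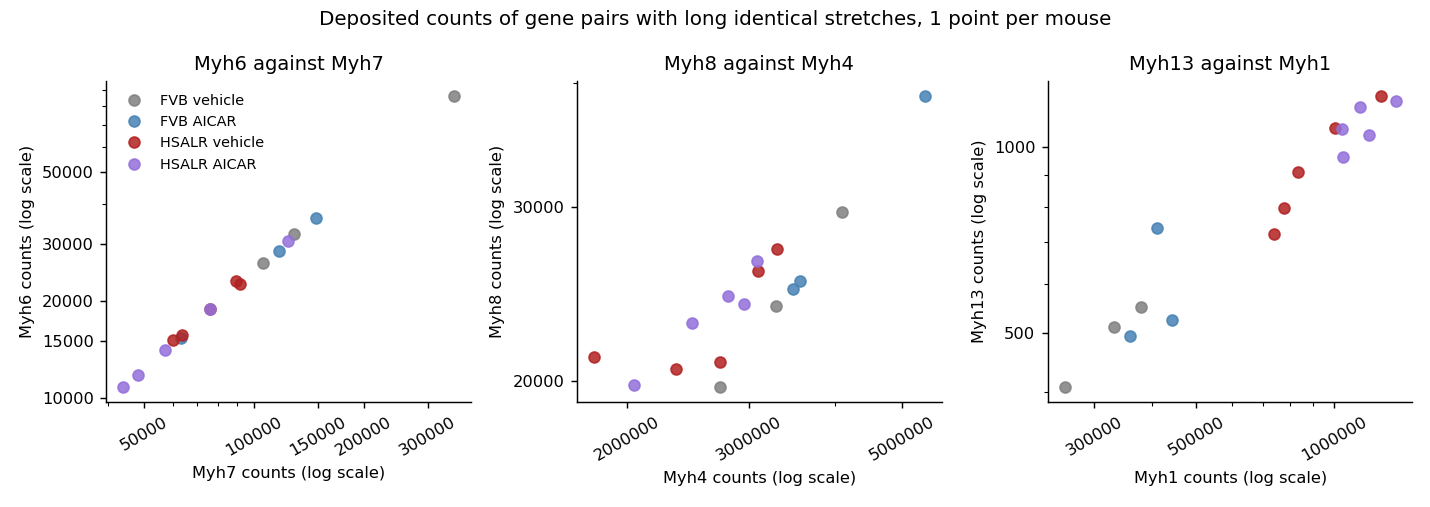
Deposited counts (both axes logarithmic) of Myh6 against Myh7, Myh8 against Myh4 and Myh13 against Myh1, with 1 point per mouse coloured by group. Myh6 follows Myh7 on a line in all 16 mice (ratio 0.243 to 0.257), and over the 16 mice the other pairs scatter more widely.

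Antisense genes overlap exons of several members: Myhas shares 515 exonic bases with Myh1, 9430073C21Rik 237 with Myh2, Gm49130 114 with Myh6, Gm29015, Mhrt and Gm31251 142 to 523 each with Myh7, and the protein-coding Trpc4ap 37 with Myh7b. Libraries were stranded, but use of the strand in counting is not stated. Mhrt had 1 to 58 counts, with 58 in mouse S450, where Myh7 had 354136.

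In their introns, 3 of the members host microRNAs that act on muscle gene programmes, shown here with their seeds (bases 2 to 8) in capitals because the seeds link the 3 hosts. The sequences are mature forms from RefSeq.
mmu-miR-208a-3p (intron 29 of Myh6): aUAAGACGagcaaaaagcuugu
mmu-miR-208b-3p (intron 31 of Myh7): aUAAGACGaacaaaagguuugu
mmu-miR-499-5p (intron 19 of Myh7b): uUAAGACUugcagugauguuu
The seeds of the former pair are identical (UAAGACG), and that of miR-499 differs in its last base (UAAGACU). The hosts were the 3 members called lower in HSALR mice on vehicle, with the dependence on S450 and the limit on Myh6 counts given above. The microRNAs themselves had 0 to 3 counts in these mRNA libraries, which do not capture mature microRNAs, and were not measured.

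The 8 genes were set beside the partner genes of their fibre types, lists chosen with earlier results of these data known. Slow fibre partners (11 genes of the slow thin and thick filament, calcium handling and Z disc) summed to 3792, 3986 and 10720 normalized CPM in control mice on vehicle, the last in S450, and to 3056 to 4364 in HSALR mice on vehicle. They were thus high in the same mouse as Myh7. In HSALR against control mice on vehicle, 5 of 11 were lower and 1 higher, where 11.5% and 15.4% of all genes tested were, with a median log2 fold change of -0.94: Tpm3, slow tropomyosin, fell by 1.13, Myl2, the slow regulatory light chain, by 1.08 and Tnnt1, slow troponin T, by 1.03 on the log2 scale, while Csrp3, a Z-disc stress sensor, rose by 1.38. Without S450, 0 of 11 were lower by edgeR, also at an unadjusted p under 0.05, 2 were higher (Csrp3 and the stress-responsive Ankrd2), and the median was -0.31. Fast fibre partners (11 genes, among them Mylpf, Tnnt3 and Atp2a1) gave 0 calls by edgeR in that comparison, with 1 higher and 2 lower at an unadjusted p under 0.05 and a median of 0.02. Without S450, 3 of 11 were called lower, and there is no share of all genes from that fit to set beside the count.

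Thick filament and myosin folding genes (13) had 2 higher and 1 lower in that comparison, 3 of 13 where 26.9% of all genes tested were called, so that their number was near the background. Mybph, myosin-binding protein H, rose by 2.46 on the log2 scale (SE 0.21; adjusted p = 1.4e-06, edgeR), Smyd1, a myosin chaperone partner, rose by 0.21, and Ttn, titin, fell by 0.78. Without S450, Mybph (2.23) and Ttn (-0.92) were still called and Smyd1, at 0.20, was not (adjusted p = 0.056, edgeR). Of 8 genes of developing or regenerating fibres, 5 were higher and 1 lower in HSALR mice on vehicle (15.4% and 11.5% of all genes tested), with the largest log2 fold changes in the fusion proteins Mymx (5.53) and Mymk (2.70), the embryonic light chain Myl4 (1.82) and, in the opposite direction, Actc1 (-3.15). Actc1, the cardiac actin that developing skeletal muscle also makes, had 12.5 ± 1.23 normalized CPM in HSALR mice and 111 ± 67.3 in control mice on vehicle, and without S450 its log2 fold change was -3.58 (adjusted p = 1.3e-09, edgeR). The embryonic chain Myh3 and the perinatal chain Myh8 were not called beside them. Mymx had 1 to 5 counts in control mice on vehicle, so that its fold change is poorly determined. Without S450, 6 of the 8 were higher and 1 lower, again with no share of all genes from that fit to set beside them. Under AICAR against vehicle in HSALR mice, 6 of those 8 genes were lower, where 13% of all genes tested were, led by Mymx (-1.94), the fetal acetylcholine receptor subunit Chrng (-1.42), Myl4 (-1.04) and Actc1 (-0.85). Among other class II chains (6 genes), Myh13 rose, with the limit on its counts given above, and Myh11, of smooth muscle, fell by 0.83 on the log2 scale.

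Transcriptional regulators of Myh genes (24) had 3 higher and 2 lower in HSALR mice on vehicle, 5 of 24 where 26.9% of all genes tested were called, which is no more than the background. The lowest was 2310065F04Rik (linc-Myh), a long noncoding RNA between Myh3 and Myh2 (chr11:67112461-67120080), at 44.2 ± 3.77 normalized CPM in HSALR mice and 111 ± 13.8 in control mice (log2 fold change -1.33, SE 0.13; adjusted p = 2.8e-06, edgeR). The ranges did not overlap. After AICAR it was 59.4 ± 9.81 against 204 ± 27.8 (log2 fold change -1.78; adjusted p = 3.2e-07, edgeR). AICAR itself raised it by 0.87 on the log2 scale in control mice (adjusted p = 0.0014, edgeR) and by 0.43 in HSALR mice (adjusted p = 0.011, edgeR). Myod1 and Myog, the myogenic factors, were higher in HSALR mice on vehicle (log2 fold change 1.39 and 0.78; adjusted p = 0.019 and 0.011, edgeR), and without S450 they had 1.15 and 0.73 (adjusted p = 0.088 and 0.048, edgeR). Without S450, the lncRNA had a log2 fold change of -1.43 (adjusted p = 7.2e-06, edgeR).

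Across the 16 mice, the genes whose log2 levels followed each member most closely were found among 12479 genes, as a description that mixes differences between and within groups. All points share their library scaling. For Myh7 they were Tpm3, Atp2a2, the slow calcium pump, and Myl2 (Pearson r of 0.978, 0.976 and 0.966), and after subtraction of group means r stayed at 0.959 to 0.983. For Myh6 the first pair was the same, followed by Tnnt1 (0.970). For Myh1 they were Myh13 (0.960), Pon2 (0.952) and Fbxo27 (0.951), with 0.853, 0.466 and 0.464 after subtraction of group means. For Myh4 they were Tex261 (0.910), Gaa (0.908) and Tchp (0.885), for Myh2 Frzb (0.782), Pwwp3a (0.766) and Pacs1 (0.760), and for Myh8 Vps9d1 (0.882), Srl (0.866) and Map3k10 (0.861). For Myh3 they were Dnajc24 (0.904), Inpp5j (0.864) and Golm2 (0.849), and for Myh7b Acot11 (0.890), Maob (0.878) and Mylk3 (0.872). Between members, r was 1.00 for Myh6 and Myh7, 0.857 for Myh4 and Myh8, 0.875 for Myh7 and Myh7b, -0.632 for Myh1 and Myh4, and -0.757 for Myh1 and Myh7. Within groups, that of Myh1 and Myh4 was -0.291 and that of Myh1 and Myh7 -0.462.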

How the data were processed

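Gastrocnemius muscles of 16 mice were powdered, part of the powder was used for RNA, and stranded TruSeq mRNA libraries were sequenced with single-end reads. Per the methods, the authors mapped reads to mm10 with STAR 2.5.2a, kept reads with as many as 10 alignments, assigned a read with tied best alignments to 1 of them, and counted for each gene the reads whose first base fell in one of its RefSeq exons. The deposited values are these raw counts per gene, without normalization, and the deposited table gives a gene length, a value of other kind, in bases. Read length and use of strand in counting are not given in the sources used here, and nothing names the vehicle. All columns of the table matched a sample of the series.

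Entrez identifiers were matched to RefSeq symbols (24374 of 24454 matched). Genes were filtered with filterByExpr and scaled with TMM, and 1 mean per group was fitted over all 16 libraries with edgeR 4.0.16 in R 4.3.3 (quasi-likelihood test, Benjamini-Hochberg over 15487 genes, threshold 0.05). The script was tested on simulated data. Groups were taken from the genotype and treatment labels. The 6 contrasts share mice where they share a group. Shares are counts of a gene over the summed counts of the 8 genes, compared with two-sided exact permutation tests. Libraries of a group differed from each other by more than sampling noise, and each mouse counted as 1 replicate. Each SD is the spread between the mice of a group. Each SE is the absolute log2 fold change divided by the square root of the F statistic of the edgeR test. Counting error is small for genes with many counts but not for those with few, such as Mymx.

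The text names all 8 members, for each the 3 genes with the highest r (pseudocount 0.5, mean normalized CPM of at least 1), and in each list up to 4 called genes with the largest change. Lists were slow, fast, thick filament, regulator, other class II, developmental, and markers of skeletal, cardiac and smooth muscle, epidermis, macrophages and adipocytes. In HSALR against control mice on vehicle, 2 of 5 skeletal muscle markers were higher and 1 lower, 2 of 5 smooth muscle markers and Ryr2 among the 2 cardiac markers tested were lower, and 2 of 4 macrophage markers were higher, where 15.4% of all genes tested were higher and 11.5% lower. In the same comparison 0 of 4 adipocyte and 0 of 8 epidermal markers were called by edgeR, 0 of them also at an unadjusted p under 0.05, but without S450 all 8 epidermal markers had one. Members and lists were chosen with earlier results of these data known. Alternatives were other scalings, DESeq2 1.42.0, limma 3.58.1 (voom), other filters, fits of the compared groups alone, and fits without each mouse in turn. A covariate for epidermal markers, leaving out S450 and S460 together, Myh6 counts added to Myh7, and lists without S450 were chosen after seeing the data. Positions, promoters and microRNAs are from RefSeq (GRCm38.p6), transcripts and exons from GENCODE M21, both the same build as mm10.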

Additional observations from a re-analysis of the deposited data

Results flagged for a closer look

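In groups of 5 mice, a share or a level was singled out when the gap between the highest or lowest mouse and its nearest neighbour took more than 0.71 of the range of the group (Dixon's test, 95%). This was applied to 32 sets of 5 values, 16 of shares and 16 of normalized CPM, where chance at about 1 in 20 would give 1.6, and 3 were found, all shares. In HSALR mice on vehicle, mouse S451 had 52.1% of Myh4, the other 4 mice lying at 68.2% to 72.3%. In HSALR mice on AICAR, mouse S460 had 36.6% of Myh1 (others 24.3% to 27.4%) and 55.0% of Myh4 (others 65.6% to 68.2%), which are 2 readings of 1 composition. Groups of 3 mice, and thus S450 and S449, were not examined in this way.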

How the results depend on the processing

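No paired analysis was possible because the mouse identifiers are unique numbers that pair no mice across groups. The calls of Myh1 in the 3 comparisons of genotypes were kept under every alternative run. The other calls rest on few mice: those of Myh6, Myh7 and Myh7b were lost without S450, that of Myh4 after AICAR without S449, and that of Myh3 for AICAR in control mice under 5 of 11 alternatives and without S450, S448 or S449. Bulk shares, 3 control mice per group and shared sequence limit what can be told. The cause of these changes was not tested.

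In HSALR against control mice on vehicle, 1 member was called without S450 and S460, and the Myh4 share difference, past the threshold with counts per gene length, was -12.0 (exact permutation p = 0.036) and with only the 4 adult members -12.6 (exact permutation p = 0.036). For AICAR in HSALR mice, 1 member was called with only the groups compared and without S450 and S460. For AICAR in control mice, 2 were called with DESeq2 and 0 relative to Tbp, with limma voom, with only the groups compared, with the epidermal covariate and without S450 and S460. In AICAR-treated HSALR against vehicle-treated control mice, 1 was called without S450 and S460.

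Scaling to Tbp moved the median log2 fold change of all genes by 0.27 in HSALR against control mice on vehicle, by -0.11 and 0.2 for AICAR in HSALR and control mice, by 0.16 in AICAR-treated HSALR against vehicle-treated control mice and by -0.31 in the interaction. Signs turned, none of them past the threshold, in these log2 fold changes. Relative to Tbp, HSALR against control on vehicle gave Myh2 0.012, Myh3 0.10 and Myh8 0.19, AICAR in HSALR mice gave Myh4 -0.10 and Myh8 -0.079, AICAR-treated HSALR against vehicle-treated control mice gave Myh8 0.11 and the interaction gave Myh2 -0.039. With library size scaling, AICAR in HSALR mice gave Myh4 -0.045 and Myh8 -0.036, and limma voom gave Myh3 0.033 in HSALR against control on vehicle. With the epidermal covariate, HSALR against control on vehicle gave Myh8 0.041, and AICAR in HSALR mice gave Myh4 -0.075, Myh6 0.39, Myh7 0.40, Myh7b 0.29 and Myh8 -0.15. Without S450 and S460, Myh3 had 0.63 in HSALR against control on vehicle, 0.11 in AICAR-treated HSALR against vehicle-treated control mice and -0.094 in the interaction, and Myh1 had 0.041 in the interaction.

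Leaving out 1 mouse at a time, the number of members called ranged from 1 to 4 in HSALR against control on vehicle, 0 to 1 for AICAR in HSALR mice, 0 to 1 for AICAR in control mice, 1 to 3 in HSALR against control after AICAR and 1 to 5 in AICAR-treated HSALR against vehicle-treated control mice. Log2 fold changes that turned ranged as follows. In HSALR against control on vehicle, Myh3 ranged from -0.51 to 0.64 and Myh8 from -0.20 to 0.041. For AICAR in HSALR mice, Myh4 ranged from -0.075 to 0.11, Myh7 from -0.41 to 0.0018 and Myh7b from -0.40 to 0.13. After AICAR, Myh2 ranged from -0.12 to 0.14. In AICAR-treated HSALR against vehicle-treated control mice, Myh3 ranged from -1.03 to 0.12 and Myh8 from -0.16 to 0.083. In the interaction, Myh1 ranged from -0.20 to 0.14, Myh3 from -0.10 to 1.05, Myh6 from -0.042 to 0.97 and Myh7 from -0.056 to 0.98.

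Share differences in percentage points ranged, in HSALR against control on vehicle, from -1.71 to 0.188 for Myh2, -0.00658 to 0.00687 for Myh3, -14.5 to -8.20 for Myh4, -1.01 to -0.161 for Myh6, -4.17 to -0.656 for Myh7, -0.0288 to -0.00952 for Myh7b and -0.00127 to 0.0380 for Myh8. For AICAR in HSALR mice they ranged from 1.94 to 7.28 for Myh1, -6.51 to -0.509 for Myh4, -0.141 to -0.0436 for Myh6, -0.549 to -0.154 for Myh7 and -0.00484 to 0.000243 for Myh7b. For AICAR in control mice they ranged from 0.000449 to 1.58 for Myh1, -3.22 to -1.32 for Myh2, -0.0159 to -0.00247 for Myh3, 2.08 to 7.44 for Myh4, -0.918 to -0.0664 for Myh6, -3.74 to -0.218 for Myh7, -0.0307 to -0.0115 for Myh7b and 0.00557 to 0.0452 for Myh8. After AICAR they ranged from -0.148 to 1.37 for Myh2, 0.00229 to 0.00523 for Myh3, -0.338 to -0.0597 for Myh6, -1.41 to -0.272 for Myh7 and -0.00291 to 0.00218 for Myh7b. In AICAR-treated HSALR against vehicle-treated control mice they ranged from -2.57 to -0.666 for Myh2, -0.0121 to 0.00138 for Myh3, -1.09 to -0.240 for Myh6, -4.47 to -0.954 for Myh7, -0.0306 to -0.0113 for Myh7b and -0.0243 to 0.0150 for Myh8.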
